A study of Mus musculus with 18 samples.

Results

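The genes described here encode the subunits of the mitochondrial respiratory chain, complexes I to IV, and of the ATP synthase, complex V, measured as RNA in whole mouse aortas. They were chosen by gene symbol, as the protein-coding genes of GENCODE M21 whose symbols begin with Ndufa, Ndufb, Ndufc, Ndufs or Ndufv, Uqcr, Cox4 to Cox8, Atp5, mt-Nd, mt-Co, mt-Cytb or mt-Atp, together with Sdha to Sdhd and Cyc1. Assembly factors (Ndufaf) were not included. The rule gave 100 members among the 54281 genes of the deposited table, 87 in the nuclear genome and 13 in the mitochondrial genome. Of these, 97 had at least 10 counts in at least 6 mice and entered the tests, 84 nuclear and 13 mitochondrial, among 15210 genes tested in all. The 3 members that did not are complex IV isoforms of other tissues. Cox6a2, the heart and skeletal muscle form of subunit 6a, had mean counts of 3.83 in HGPS, 0.167 in 2-mo WT and 0.333 in 24-mo WT, and Cox7b2 and Cox8c had no count in any mouse. By complex, the nuclear members tested were 37 of complex I, 4 of complex II, 9 of complex III, 16 of 19 of complex IV and 18 of complex V, and the mitochondrial ones were 7 of complex I, 1 of complex III, 3 of complex IV and 2 of complex V. Ndufa4 was counted with complex IV, of which its protein is a subunit. Ndufa4l2 was kept with complex I by its name, and Cox7a2l and Atp5s share a prefix with subunits but are not core subunits of the complexes they were counted with.

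The respiratory chain oxidizes NADH at complex I and succinate at complex II, passes the electrons through ubiquinone to complex III and through cytochrome c to complex IV, where oxygen is reduced. Complexes I, III and IV pump protons across the inner mitochondrial membrane, and the ATP synthase uses the return of the protons to make ATP. Complex II is encoded in the nucleus alone, whereas the other complexes mix subunits made in the cytosol and imported with a few made inside the organelle from mitochondrial DNA, so that RNA of both genomes is needed for each of them. Mitochondria are abundant in heart, oxidative skeletal muscle and brown adipocytes, which also use tissue-specific isoforms of some complex IV subunits. Vascular smooth muscle, the main cell of the aortic media, has fewer.

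RNA was sequenced from the descending aorta of 18 male C57BL/6 mice in 3 groups of 6. The HGPS group models Hutchinson-Gilford progeria syndrome and is homozygous for the LMNAG609G knock-in, a point change in the endogenous Lmna gene that increases a splice product called progerin in every cell that uses the gene. Their ages ran from 64 to 75 d. In the 2-mo WT group 5 mice had reached 62 d and replicate 6 had reached 95 d. The ages of the 24-mo WT mice ran from 609 to 762 d. The aortas were cleaned before RNA was prepared and held intima, media and adventitia, and each sample was 1 mouse. Total RNA was depleted of ribosomal RNA, and the libraries held 17838351 to 30844775 counts in HGPS, 12413229 to 21016752 in 2-mo WT and 13622602 to 19871697 in 24-mo WT. Lmna was measured at 577 ± 82.3 CPM (counts scaled to the same library total for all mice, mean ± SD, n = 6) in HGPS, 416 ± 60.7 in 2-mo WT and 418 ± 73.2 in 24-mo WT. Its gene count does not show the splice change, so the genotype was not checked by it. Smooth muscle markers were abundant in all mice, with a mean log2 CPM of 9.64 to 10.4 over the 8 genes of that list. Below, a gene is said to have risen or fallen where the Benjamini-Hochberg adjusted p of edgeR's quasi-likelihood test was under 0.05, and a stricter threshold required an adjusted p under 0.001 together with a difference of at least 1.5-fold.

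The first comparison asked how subunit RNA differed between HGPS and WT aortas of the same age. Most subunits of every complex were higher in HGPS, and the rise was moderate, with a median of 0.56 on the log2 scale (1.48-fold) over the 84 nuclear members and 0.46 (1.37-fold) over the 13 mitochondrial ones, against a median of 0.003 over all genes tested. At an adjusted p under 0.05, 79 of 97 members rose, 72 nuclear and 7 mitochondrial, where 22% of all genes tested rose. A single member, Ndufa4l2, fell, where 21.2% of all genes fell. At the stricter threshold 30 members were higher, all of them nuclear, beside 5.27% of all genes. DESeq2 put 37 members past it, 3 of them mitochondrial, and neither tool put a member past it as lower (1 was lower at an unadjusted p under 0.05). Every HGPS mouse was above every 2-mo WT mouse for 17 members, 14 nuclear and 3 mitochondrial, which compares with 11% of all genes. The stricter count rested on single mice. It was 15 without HGPS replicate 3, 17 without HGPS replicate 2, 17 without 2-mo WT replicate 4, 18 without 2-mo WT replicate 6 (the 95-d mouse) and 46 without HGPS replicate 4, and it was 13 when the 2 groups were fitted alone. The count at an adjusted p under 0.05 stayed between 75 and 83 members when any 1 mouse was left out.

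The same difference was seen in the summed values of each mouse. The 84 nuclear members together made up 9287, 11428, 12404, 7193, 8579 and 9186 CPM in HGPS replicates 1 to 6. In 2-mo WT the sums were 7890, 6529, 6371, 5810, 6715 and 6106 CPM. HGPS replicate 4 lay below 2-mo WT replicate 1, and the other 5 HGPS mice lay above all 2-mo WT mice. These 2 mice marked the near ends of their groups for most genes, since HGPS replicate 4 was the lowest HGPS mouse for 78 of the 84 nuclear members and 2-mo WT replicate 1 the highest 2-mo WT mouse for 70. At the other end, HGPS replicate 3 was the highest HGPS mouse for 75. The 24-mo WT mice were closer together, at 6251 ± 282 CPM (mean ± SD, n = 6), with a range of 5836 to 6707. The deposited columns label HGPS replicates 1 to 3 as s19, s22 and s23 and replicates 4 to 6 as s48 to s50. They label 2-mo WT as s41 to s46 and 24-mo WT between s24 and s34. What these numbers stand for is not given. HGPS replicates 1 to 3 had higher nuclear sums than replicates 4 to 6. Their mitochondrial sums were also higher, 29399.1 to 41869.3 against 24204.5 to 26650.5 CPM. The part of the numbering in the differences was not tested.

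**Figure D1:**
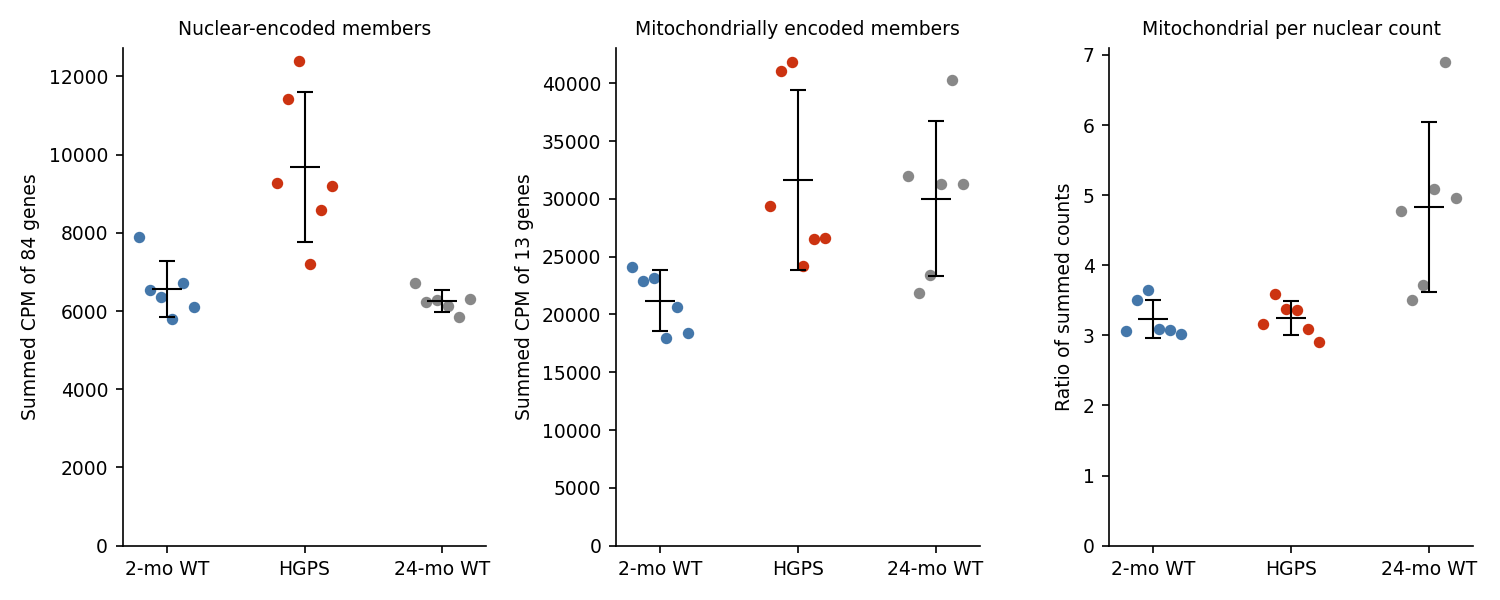
Summed CPM of the 84 nuclear members, summed CPM of the 13 mitochondrial members, and the ratio of mitochondrial to nuclear member counts in each of the 18 mice (points), with the mean ± SD of each group. The nuclear sum was 9680 ± 1912 CPM in HGPS against 6570 ± 721 in 2-mo WT and 6251 ± 282 in 24-mo WT, whereas the ratio was 4.83 ± 1.21 in 24-mo WT against 3.25 ± 0.246 in HGPS and 3.23 ± 0.271 in 2-mo WT.

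Markers of brown adipocytes moved with the subunits between HGPS and 2-mo WT. All 8 tested genes of an 11-gene brown fat list rose in HGPS over 2-mo WT, and Zic1, Lhx8 and Bmp8b were too low to be tested. Ucp1, the uncoupling protein that defines brown fat, was present in all 3 groups, at 431 ± 333 CPM in HGPS, 94.2 ± 91.0 in 2-mo WT and 52.6 ± 50.1 in 24-mo WT. The mean log2 CPM of the 8 markers was 5.39, 6.50, 6.30, 4.40, 4.99 and 5.60 in HGPS replicates 1 to 6 and 4.85, 3.92, 3.33, 1.02, 3.72 and 2.40 in 2-mo WT. HGPS replicates 2 and 3, which had the highest nuclear and mitochondrial sums, had the highest marker levels, and HGPS replicate 4 and 2-mo WT replicate 1, which lay closest for the subunits, had 4.40 and 4.85. Within 24-mo WT the mitochondrial members did not follow the markers. There replicate 5 had the lowest marker level, 2.43, and the highest mitochondrial sum, 40279 CPM. With this score as a covariate in the edgeR fit, 11 of 97 members rose between HGPS and 2-mo WT, where 10.2% of all genes rose in that fit, and 2 fell, where 10.2% of all genes fell. None passed the stricter threshold as higher, where 0.947% of all genes did (25 members were higher and 4 lower at an unadjusted p under 0.05), and the median was 0.18 over the nuclear members and -0.03 over the mitochondrial ones. The 11 members were Atp5e, Atp5f1, Atp5h, Atp5j, Atp5mpl and Atp5o of complex V, Cox4i1, Cox5a, Cox6b2 and Cox7c of complex IV, and Ndufa6 of complex I, and those that fell were Ndufv3 and Atp5s. The score and the genotype overlapped little between these groups, so that such a fit separates them poorly.

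**Figure D2:**
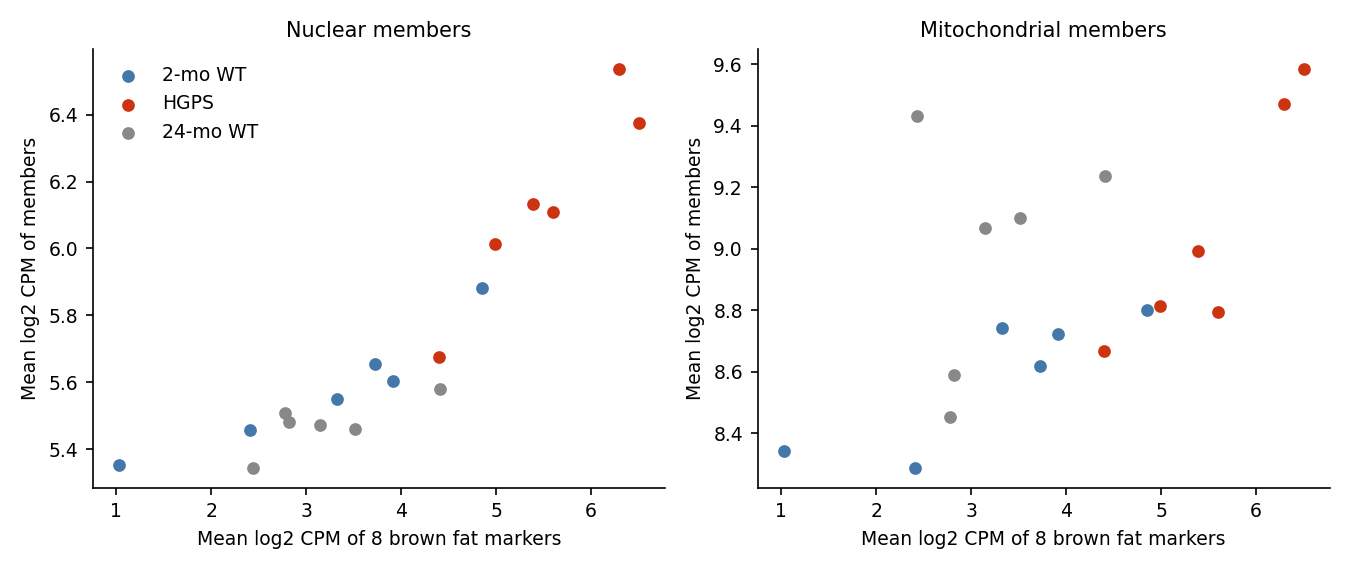
Mean log2 CPM of the nuclear and of the mitochondrial members (y axes) against the mean log2 CPM of 8 brown fat markers (x axis) in each of the 18 mice, coloured by group. On the x axis HGPS ran from 4.40 to 6.50, 2-mo WT from 1.02 to 4.85 and 24-mo WT from 2.43 to 4.41.

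Other cell markers also differed between HGPS and 2-mo WT. White fat and adipocyte markers rose for 7 of 8 genes and macrophage markers for 8 of 8, while 5 of 8 smooth muscle markers and 4 of 6 fibroblast markers fell. The mean log2 CPM of the macrophage list was 6.30 to 6.99 in HGPS and 5.41 to 5.97 in 2-mo WT, and that of the smooth muscle list was 9.64 to 9.96 in HGPS and 10.1 to 10.3 in 2-mo WT, without overlap. Of the skeletal muscle markers 2 of 5 tested were higher, Tnnt3 by 2.00 and Myl1 by 2.05 on the log2 scale, and Ckm fell by 1.08. Of the cardiac muscle markers 2 of 4 tested were higher, Actc1 at 5.05 CPM in HGPS against 1.82 in 2-mo WT and Myl7 at 0.777 against 0.0503 CPM. Myl7 was near the detection limit in 2-mo WT. The mean log2 CPM of the 4 cardiac genes varied between HGPS mice, from -1.68 to 1.65, and overlapped with 2-mo WT, at -1.45 to -0.30. Of the nerve and Schwann cell markers 2 of 3 tested were higher. The share of these changes in the subunit RNA was not tested. In whole tissue, fewer cells of a type and less RNA per cell cannot be told apart.

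**Figure D3:**
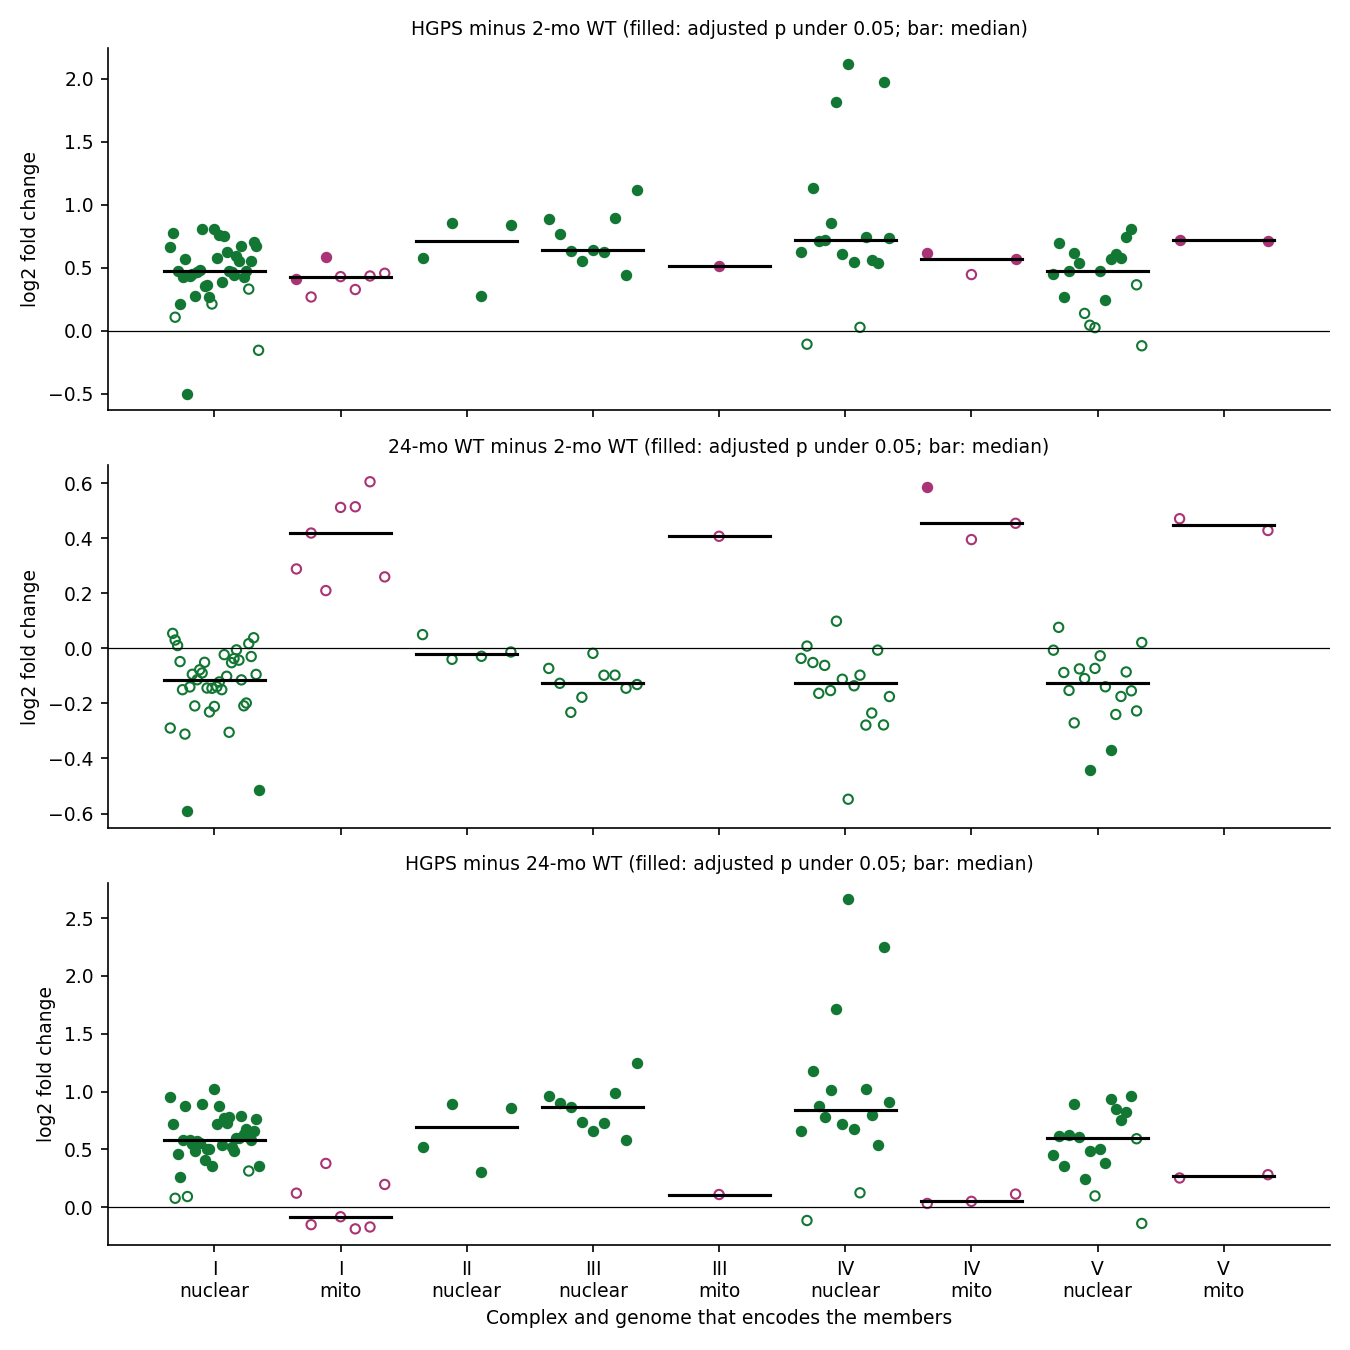
The log2 fold change of each of the 97 members (points) by complex and genome, in HGPS against 2-mo WT, 24-mo WT against 2-mo WT and HGPS against 24-mo WT, with filled points at an edgeR adjusted p under 0.05 and a bar at the median. Nuclear medians lay between 0.47 and 0.72 in HGPS against 2-mo WT and between -0.13 and -0.02 in 24-mo WT against 2-mo WT, whereas mitochondrial medians in the second comparison lay between 0.41 and 0.45.

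Complex I, the NADH dehydrogenase, had 32 of 37 nuclear members higher and 1 lower in HGPS, with a median log2 fold change of 0.47 and a range from -0.50 to 0.81. The highest were Ndufb4, a subunit of the membrane arm, and Ndufab1, the mitochondrial acyl carrier protein that the complex shares with fatty acid synthesis. Ndufb4 had 16.1 CPM in the lowest, 20.9 in the median and 27.6 in the highest HGPS mouse and 9.17, 11.9 and 15.8 in 2-mo WT, so the groups did not overlap (log2 fold change 0.81 ± 0.132 SE, adjusted p = 8.71e-05). A near-identical gene, Ndufb4c, held up to 62.2% of the counts of the pair, and with both summed the log2 difference was 0.70 (adjusted p = 6.00e-05). Ndufab1 had 28.6, 36.6 and 51.7 CPM in HGPS and 17.2, 22.2 and 29.8 in 2-mo WT (0.80 ± 0.147, adjusted p = 0.000254), and the groups overlapped at their ends. Ndufa10, a subunit of the membrane arm, was 0.78 ± 0.158 higher (adjusted p = 0.000655). Genes of the catalytic core rose as well, with log2 fold changes of 0.70 for Ndufv1, which binds NADH and flavin, 0.67 for Ndufv2 and 0.45 for Ndufs1. These core genes were picked for their role after their values were seen.

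The lowest genes counted with complex I were Ndufa4l2, placed there by its name alone, and Ndufv3. Ndufa4l2, a paralog of Ndufa4 that is induced at low oxygen, had 4.09, 4.65 and 5.99 CPM in the lowest, median and highest HGPS mouse and 5.80, 7.06 and 8.12 in 2-mo WT. Only the highest HGPS value lay above the lowest 2-mo WT value, and the gene fell by 0.50 ± 0.140 on the log2 scale (adjusted p = 0.00717). Ndufv3, a small subunit of the NADH-oxidizing module, had 69.1, 78.8 and 106 CPM in HGPS and 73.7, 92.3 and 109 in 2-mo WT, a log2 difference of -0.15 ± 0.108 that did not pass the test (adjusted p = 0.266).

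Complex II, the succinate dehydrogenase, rose in all 4 subunits, with a median of 0.71. The iron-sulfur subunit Sdhb had 81.0, 114 and 195 CPM in the lowest, median and highest HGPS mouse and 55.4, 67.6 and 96.9 in 2-mo WT (0.85 ± 0.172, adjusted p = 0.000604). The membrane anchor Sdhd had 87.2, 114 and 177 CPM in HGPS and 55.7, 70.2 and 98.5 in 2-mo WT (0.84 ± 0.158, adjusted p = 0.000308). Both genes overlapped between the groups, and the catalytic flavoprotein Sdha and the other anchor Sdhc rose less. Sdha had 279, 351 and 522 CPM in HGPS and 215, 252 and 327 in 2-mo WT (0.57 ± 0.139, adjusted p = 0.00258), and Sdhc had 122, 138 and 173 CPM against 104, 117 and 133 (0.27 ± 0.0793, adjusted p = 0.00887).

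Complex III, the cytochrome bc1 complex, rose in all 9 nuclear members, with a median of 0.64 and a range from 0.44 to 1.11. Uqcrq, a small subunit that contacts cytochrome b, had 12.1, 34.5 and 47.1 CPM in the lowest, median and highest HGPS mouse and 10.3, 14.7 and 21.1 in 2-mo WT (1.11 ± 0.265, adjusted p = 0.00227), and its lowest HGPS mouse lay within the WT range. Uqcrfs1, the Rieske iron-sulfur protein, had 75.3, 97.0 and 153 CPM in HGPS and 46.9, 54.6 and 88.0 in 2-mo WT (0.89 ± 0.171, adjusted p = 0.000376). The lowest rises were 0.44 ± 0.0908 for the hinge protein Uqcrh (adjusted p = 0.000734) and 0.56 ± 0.113 for Uqcrb (adjusted p = 0.00063). The core protein Uqcrc1 was 0.64 ± 0.167 higher (adjusted p = 0.0046).

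Complex IV, cytochrome c oxidase, had the widest spread, with 14 of 16 nuclear members higher, a median of 0.72 and a range from -0.11 to 2.11. Its common isoforms rose together by 0.53 to 0.86. Cox4i1, the largest nuclear subunit, had 278, 355 and 450 CPM in the lowest, median and highest HGPS mouse and 219, 231 and 278 in 2-mo WT, which met but did not overlap (0.62 ± 0.0954, adjusted p = 4.71e-05). Cox6b1, which joins the monomers of the complex, was 0.86 ± 0.140 higher (adjusted p = 8.72e-05), and Cox7b was 0.75 ± 0.119 higher (adjusted p = 6.81e-05). The groups did not overlap for Ndufa4, with 123, 147 and 209 CPM in HGPS and 75.5, 94.0 and 117 in 2-mo WT (0.73 ± 0.116, adjusted p = 6.28e-05). Cox5a, a subunit on the matrix side that was chosen after its values were seen, had 49.1, 74.1 and 112 CPM in HGPS and 24.8, 38.1 and 48.4 in 2-mo WT, also without overlap (1.13 ± 0.177, adjusted p = 6.11e-05). The members that did not pass were Cox4i2, at -0.11 ± 0.190 (adjusted p = 0.686), and Cox7a2l, a factor that joins complexes III and IV into supercomplexes, at 0.03 ± 0.0704 (adjusted p = 0.786).

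Complex V, the ATP synthase, had 13 of 18 nuclear members higher, with a median of 0.47 and a range from -0.12 to 0.81. Atp5o, the stalk subunit that links the catalytic head to the membrane part, had 112, 148 and 190 CPM in the lowest, median and highest HGPS mouse and 73.2, 87.1 and 107 in 2-mo WT, without overlap (0.81 ± 0.107, adjusted p = 1.12e-05). Atp5mpl, a small membrane subunit, had 35.5, 43.9 and 58.8 CPM in HGPS and 23.2, 26.8 and 31.6 in 2-mo WT, again without overlap (0.74 ± 0.110, adjusted p = 3.44e-05). The catalytic subunit Atp5b rose by 0.69 ± 0.116 (adjusted p = 0.000114). The genes of the c ring, the rotor in the membrane that turns as protons pass, did not pass the test. Atp5g3 had 86.6, 93.7 and 96.9 CPM in HGPS and 88.1, 91.3 and 95.2 in 2-mo WT (0.03 ± 0.050, adjusted p = 0.721), Atp5g1 differed by 0.14 ± 0.0784 (adjusted p = 0.166) and Atp5g2 by 0.04 ± 0.119 (adjusted p = 0.795). The differences between these genes and the rest of the complex were not tested. Most counts of the Atp5g2 sequence, 74.2 to 86.8%, were assigned to a near-identical copy, Gm10175, and with both summed the difference was 0.06 (adjusted p = 0.435). Atp5s, a coupling factor, was at -0.12 ± 0.166 (adjusted p = 0.597), and a second gene with the symbol Atp5o was at 0 to 2.88 CPM.

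The 13 mitochondrial genes are carried on both strands of 1 circular molecule and are cut from long shared transcripts, so their levels are not independent of each other. All 13 had positive log2 differences in HGPS over 2-mo WT, from 0.27 to 0.72, and 7 passed the test. mt-Atp6, the proton channel subunit of complex V, had 1437, 1648 and 2632 CPM in the lowest, median and highest HGPS mouse and 931, 1188 and 1340 in 2-mo WT (0.72 ± 0.175, adjusted p = 0.00255). mt-Co1, the catalytic subunit of complex IV, had 12113, 13803 and 19655 CPM in HGPS and 8468, 9883 and 11187 in 2-mo WT (0.62 ± 0.147, adjusted p = 0.00229). Neither overlapped between the groups, and the same held for mt-Atp8, the partner of mt-Atp6 (0.71 ± 0.167, adjusted p = 0.00212). The others that rose were mt-Nd3 by 0.59 (adjusted p = 0.00874), mt-Co3 by 0.57 (adjusted p = 0.00728), mt-Cytb by 0.52 (adjusted p = 0.0162) and mt-Nd1 by 0.41 (adjusted p = 0.0472). The last 2 were the least firm, as mt-Cytb had an adjusted p of 0.0517 without HGPS replicate 2 and mt-Nd1 no longer passed with the 2 groups fitted alone (adjusted p = 0.0544) or in most of the fits without 1 mouse, up to an adjusted p of 0.147 without HGPS replicate 2. Those that did not pass were mt-Nd2 (0.27), mt-Nd4 (0.43), mt-Nd4l (0.33), mt-Nd5 (0.43), mt-Nd6 (0.46) and mt-Co2 (0.45).

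Copies of mitochondrial DNA in the nuclear genome took part of the counts of some of these genes. Gm28661 held 35.7 to 58.2% of the counts it shares with mt-Co2, Gm28438 33.6 to 54.3% of those shared with mt-Nd3, Gm28437 6.96 to 17.6% of those shared with mt-Co3, and Gm29216 6.43 to 8.34% of those shared with mt-Co1. With the copies added, mt-Co2 rose by 0.53 (adjusted p = 0.0118). The pairs mt-Atp8 with mt-Atp6 and mt-Nd4l with mt-Nd4 also overlap on the molecule, so the division of counts between the genes of each pair is uncertain.

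**Figure D4:**
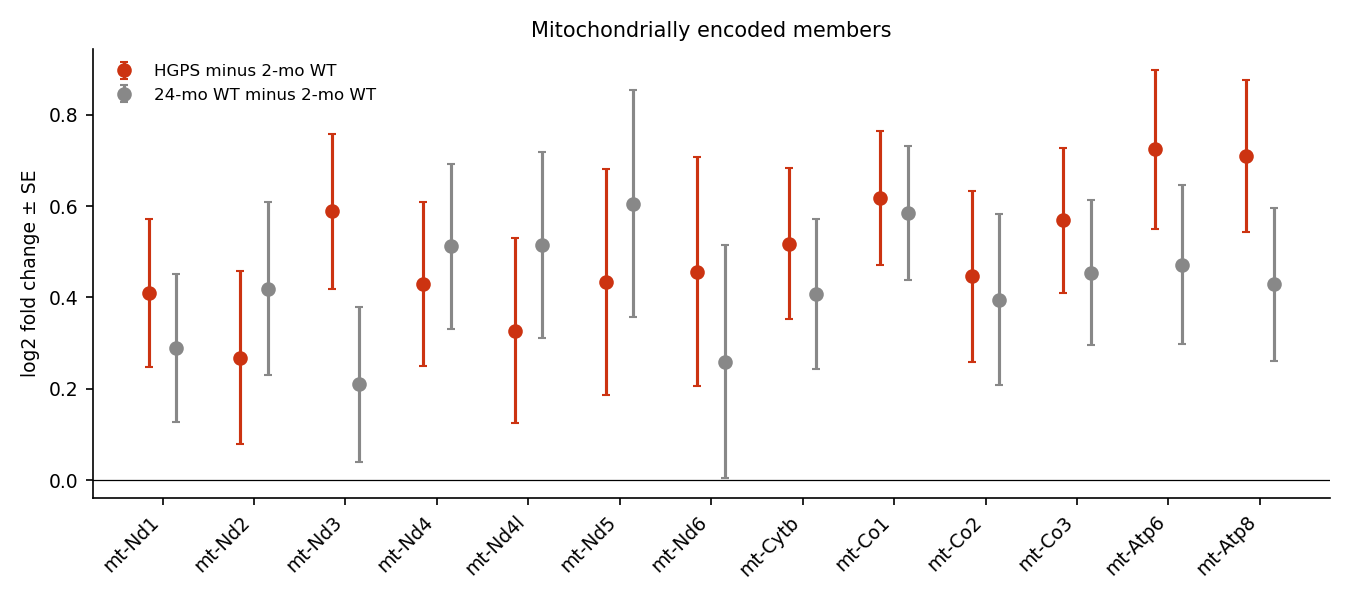
The log2 fold change ± SE of the 13 mitochondrial genes in HGPS against 2-mo WT and in 24-mo WT against 2-mo WT, grouped by complex. All values were above 0, between 0.27 and 0.72 in HGPS and between 0.21 and 0.61 in 24-mo WT, and both comparisons share the same 2-mo WT mice.

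The second comparison asked how the subunits differed between young and old WT aortas. The nuclear members had a median log2 difference of -0.11, with 74 of 84 below 0, and the mitochondrial members a median of 0.43, with 13 of 13 above 0, beside 0.008 over all genes tested. The difference between the genomes was not tested. Few members passed the edgeR test. None did at the stricter threshold, where 2% of all genes were called in either direction, and DESeq2 also called none. At an unadjusted p under 0.05, 10 members were higher, all mitochondrial, and 13 were lower, all nuclear. At an adjusted p under 0.05, 1 member, mt-Co1, rose, where 6.29% of all genes rose, and 4 members fell, Ndufa4l2, Ndufv3, Atp5g2 and Atp5j2, where 5.38% of all genes fell. DESeq2 gave 4 higher and 4 lower. Leaving out 1 mouse at a time gave 1 to 3 higher, with 3 without 24-mo WT replicate 2 or 3, and 2 to 7 lower, with 2 without 24-mo WT replicate 4 and 7 without HGPS replicate 4, which enters through the shared estimate of spread.

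mt-Co1 had 10816, 15302 and 20226 CPM in the lowest, median and highest 24-mo WT mouse against 8468, 9883 and 11187 in 2-mo WT (0.59 ± 0.147, adjusted p = 0.0121). The 24-mo WT mice were spread widely for all mitochondrial genes. Mitochondrial members made up 3.12, 2.23, 2.36, 3.11, 3.98 and 3.13% of all counts in 24-mo WT replicates 1 to 6 and 1.77 to 2.50% in 2-mo WT, and replicate 2 was the lowest 24-mo WT mouse for 13 of 13 genes. Replicates 2 and 3, which were within the 2-mo WT range, also had the highest macrophage marker level among the 24-mo WT mice, 6.29 and 6.30 against 5.32 to 5.87 in the other 4. This did not hold between groups, since HGPS mice had macrophage marker levels of 6.30 to 6.99 and mitochondrial shares of 2.51 to 4.17%. The part of the macrophage markers in the mitochondrial counts was not tested. Among the 24-mo WT mice, replicate 5 was the highest for 10 of 13 mitochondrial genes and the lowest for 45 of 84 nuclear ones.

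The ratio of mitochondrial to nuclear member counts within a mouse summarized this pattern. It was 4.77, 3.50, 3.72, 5.09, 6.90 and 4.97 in 24-mo WT replicates 1 to 6. In 2-mo WT it lay between 3.01 and 3.64 and in HGPS between 2.90 and 3.60. By this ratio 5 of the 6 old mice were above all mice of the other groups, replicate 3 by little. The HGPS and 2-mo WT mice covered nearly the same range although both of their sums differed. Summed counts give the most abundant genes the most weight. With all members weighted alike, as the mitochondrial minus the nuclear mean log2 CPM, 24-mo WT replicates 2 and 3 were at 2.95 and 3.11. Both lay within the ranges of 2-mo WT, 2.83 to 3.19, and HGPS, 2.68 to 3.21. Replicates 1, 4, 5 and 6 lay above these ranges, at 3.60 to 4.09.

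Among nuclear members, Ndufv3 showed the largest called fall in old mice after Ndufa4l2, with 57.9, 62.9 and 78.1 CPM in the lowest, median and highest 24-mo WT mouse (-0.52 ± 0.109, adjusted p = 0.00366). Ndufa4l2 had 3.82, 4.31 and 6.24 CPM in 24-mo WT (-0.59 ± 0.142, adjusted p = 0.00872), close to its HGPS values. Atp5j2, a membrane subunit of the ATP synthase, had 55.3, 61.4 and 65.1 CPM in 24-mo WT and 68.3, 76.6 and 97.7 in 2-mo WT, without overlap (-0.37 ± 0.111, adjusted p = 0.0357). Atp5g2 fell by 0.44 ± 0.121 (adjusted p = 0.0223), but with its near-identical copy added the difference was -0.11 (adjusted p = 0.248). The differences of complex II were near 0, from -0.04 for Sdhb to 0.05 for Sdha, and the extremes of the other complexes, Ndufa10 at 0.05, Uqcrc1 at -0.02, Uqcr11 at -0.23, Cox6b2 at 0.10, Atp5b at 0.08 and Cox7a1 at -0.55, did not pass. None of the 8 brown fat markers passed in this comparison by edgeR (1 was lower at an unadjusted p under 0.05), with mean log2 CPM of 3.18 ± 0.705 in 24-mo WT and 3.21 ± 1.33 in 2-mo WT. With that score as a covariate, 5 members rose, mt-Co1, mt-Co3, mt-Nd4, mt-Atp6 and mt-Atp8, where 6.97% of all genes rose in that fit, and 6 fell, all nuclear, where 5.83% of all genes fell.

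The third comparison set young HGPS aortas against old WT ones. Nuclear members were higher in HGPS, with a median log2 difference of 0.66 (1.58-fold), and mitochondrial members were nearer to 0, with a median of 0.11, beside -0.01 over all genes tested. In all, 76 members rose, all nuclear, beside 23.8% of all genes, and none fell by edgeR, by DESeq2 or at an unadjusted p under 0.05, beside 23.6% of all genes. Of the 13 mitochondrial genes none passed by edgeR, 1 was higher at an unadjusted p under 0.05, and DESeq2 called 1. The stricter threshold was passed by 44 nuclear members, where 6.02% of all genes passed as higher, and this count was 33 to 58 when 1 mouse was left out. Every HGPS mouse was above every 24-mo WT mouse for 45 members, all nuclear, beside 10.9% of all genes. By complex, the nuclear members that rose were 34 of 37 in complex I, 4 of 4 in complex II, 9 of 9 in complex III, 14 of 16 in complex IV and 15 of 18 in complex V, with medians of 0.58, 0.69, 0.87, 0.84 and 0.60. The mitochondrial medians were -0.08 for complex I, 0.11 for complex III, 0.05 for complex IV and 0.27 for complex V.

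Cox7c, a small subunit of complex IV named after its values were seen, had the smallest adjusted p of the members in this comparison, with 83.2, 106 and 119 CPM in the lowest, median and highest HGPS mouse and 54.9, 59.8 and 62.1 in 24-mo WT (0.80 ± 0.0807, adjusted p = 2.68e-07). All HGPS mice lay well above all 24-mo WT mice. Atp5o had 75.3, 77.8 and 85.7 CPM in 24-mo WT, also below all HGPS mice (0.96 ± 0.107, adjusted p = 9.36e-07). Atp5g1 and Atp5g2 were higher in HGPS than in 24-mo WT, by 0.25 (adjusted p = 0.0141) and 0.48 (adjusted p = 0.00269), and Atp5g3 differed by 0.10 (adjusted p = 0.116). With its near-identical copy Gm10175 added, the difference of Atp5g2 was 0.17 (adjusted p = 0.0214). Brown fat markers were again higher in HGPS for 8 of 8 genes. With their score as a covariate, 32 nuclear members rose, 10 of complex I, 3 of complex III, 8 of complex IV and 11 of complex V, where 13.5% of all genes rose in that fit. In the same fit 4 members fell, Atp5s, Cox8b, mt-Nd2 (-0.70) and mt-Nd5 (-0.89), where 14.4% of all genes fell. The nuclear median was then 0.32 and the mitochondrial median -0.35, and Cox7c alone passed the stricter threshold (0.61, adjusted p = 0.000416), where 1.97% of all genes passed as higher.

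Complex IV has pairs of isoforms, one in most tissues and one in few, and the pairs were compared within each mouse. Cox7a1 and Cox8b are the forms of heart and skeletal muscle and are also used by brown fat, in place of Cox7a2 and Cox8a. Their promoters, from 250 bases before to 50 bases after the transcription start in RefSeq on GRCm38.p6, are shown because the largest differences between the groups lay in these pairs. Cox7a1 lies on the plus strand at chr7:30183921-30184220, Cox7a2 on the minus strand at chr9:79759804-79760103, Cox8b on the minus strand at chr7:140900397-140900696 and Cox8a on the minus strand at chr19:7217567-7217866. Each is written 5′ to 3′ along its gene, and capitals mark matches to the ETS motif CCGGAAG in either orientation, which only the Cox8a promoter held, at positions -5 and 33 from the start.
Cox7a1: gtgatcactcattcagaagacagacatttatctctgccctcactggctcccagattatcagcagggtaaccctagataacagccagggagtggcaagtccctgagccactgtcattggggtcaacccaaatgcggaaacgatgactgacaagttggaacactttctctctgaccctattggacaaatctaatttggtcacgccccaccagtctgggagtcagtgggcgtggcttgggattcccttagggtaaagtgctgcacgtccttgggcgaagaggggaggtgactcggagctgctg
Cox7a2: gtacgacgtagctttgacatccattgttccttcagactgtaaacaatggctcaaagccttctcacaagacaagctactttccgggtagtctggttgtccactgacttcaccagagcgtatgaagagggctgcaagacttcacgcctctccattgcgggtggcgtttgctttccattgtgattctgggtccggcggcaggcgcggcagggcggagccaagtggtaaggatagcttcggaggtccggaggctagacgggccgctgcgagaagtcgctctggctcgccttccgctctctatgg
Cox8b: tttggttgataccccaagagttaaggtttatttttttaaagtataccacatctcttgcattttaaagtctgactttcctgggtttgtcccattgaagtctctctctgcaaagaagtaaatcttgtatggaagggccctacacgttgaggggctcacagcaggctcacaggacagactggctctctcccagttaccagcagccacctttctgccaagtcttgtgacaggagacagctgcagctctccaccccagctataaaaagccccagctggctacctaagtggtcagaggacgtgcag
Cox8a: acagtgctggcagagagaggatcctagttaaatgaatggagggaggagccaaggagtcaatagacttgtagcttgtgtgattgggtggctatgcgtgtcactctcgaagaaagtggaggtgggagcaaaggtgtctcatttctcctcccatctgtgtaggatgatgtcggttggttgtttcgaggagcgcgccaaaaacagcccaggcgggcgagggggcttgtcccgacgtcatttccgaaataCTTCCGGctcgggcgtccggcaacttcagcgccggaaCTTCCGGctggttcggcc
The promoters of the common forms held more CG steps, 20 for Cox7a2 and 19 for Cox8a, than those of the restricted forms, 7 for Cox7a1 and 2 for Cox8b. Their GC contents were 56.7, 56.0, 53.0 and 48.3%.

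Cox7a1 showed the largest log2 fold change of all members. It had 11.7, 27.3 and 55.7 CPM in the lowest, median and highest HGPS mouse, 0.162, 6.14 and 20.7 in 2-mo WT and 2.16, 3.70 and 12.6 in 24-mo WT (2.11 ± 0.608 in HGPS over 2-mo WT, adjusted p = 0.00868). Cox8b had 20.7, 60.3 and 101 CPM in HGPS, 1.54, 14.0 and 43.3 in 2-mo WT and 5.66, 9.74 and 33.5 in 24-mo WT (1.97 ± 0.567, adjusted p = 0.00863). For both genes 2-mo WT replicate 1, the WT mouse with the most brown fat marker RNA, was above HGPS replicates 4 and 5. The common forms Cox7a2 and Cox8a rose by 0.54 (adjusted p = 0.000121) and 0.53 (adjusted p = 0.00198). With the brown fat score as a covariate, Cox7a1 was at -0.32 and Cox8b at -0.41.

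The log2 ratio of Cox7a1 to Cox7a2 was -1.99 ± 0.643 in HGPS, -4.58 ± 2.38 in 2-mo WT and -4.07 ± 0.975 in 24-mo WT (mean ± SD, n = 6). The difference between HGPS and 2-mo WT was 2.59 (two-sided exact permutation test, p = 0.00866, adjusted p = 0.0162 over 15 tests), and 2-mo WT replicate 1, at -2.08, lay above HGPS replicates 4 and 5, at -2.83 and -2.60. That between 24-mo and 2-mo WT was 0.52 (exact permutation p = 0.643). For Cox8b over Cox8a the ratio was -1.29 ± 0.562 in HGPS and -3.24 ± 1.54 in 2-mo WT, a difference of 1.95 with the same exact permutation p of 0.00866 (adjusted p = 0.0162). Without HGPS replicate 1 or 3 neither ratio kept an adjusted p under 0.05 (exact permutation, adjusted p = 0.0528 and 0.0609 for Cox7a1, 0.0510 for Cox8b in both cases). Cox6a2 was at or under 8 counts in every HGPS mouse and lower in WT, and no fold is given for it.

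The other pairs moved the opposite way or were near the detection limit. Cox4i2, the lung form of subunit 4 that is used at low oxygen, stayed between 1.30 and 2.29 CPM in all 18 mice while Cox4i1 rose, so that the log2 ratio was -7.77 ± 0.337 in HGPS, -7.03 ± 0.307 in 2-mo WT and -7.00 ± 0.351 in 24-mo WT (difference -0.74, exact permutation p = 0.00433, adjusted p = 0.0162). The log2 ratio of Ndufa4l2 to Ndufa4 was -4.97 ± 0.208 in HGPS, -3.75 ± 0.367 in 2-mo WT and -4.17 ± 0.259 in 24-mo WT. HGPS and 2-mo WT did not overlap, and the difference of -1.22 reached the smallest p that 6 against 6 mice allow (exact permutation p = 0.00216, adjusted p = 0.0162). Cox6b2, best known from testis, was low, with 1.25, 2.12 and 3.07 CPM in the lowest, median and highest HGPS mouse and 0.413, 0.555 and 0.838 in 2-mo WT, without overlap (1.82 ± 0.339, adjusted p = 0.000304). It remained higher with the brown fat score as a covariate, at 1.78.

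**Figure D5:**
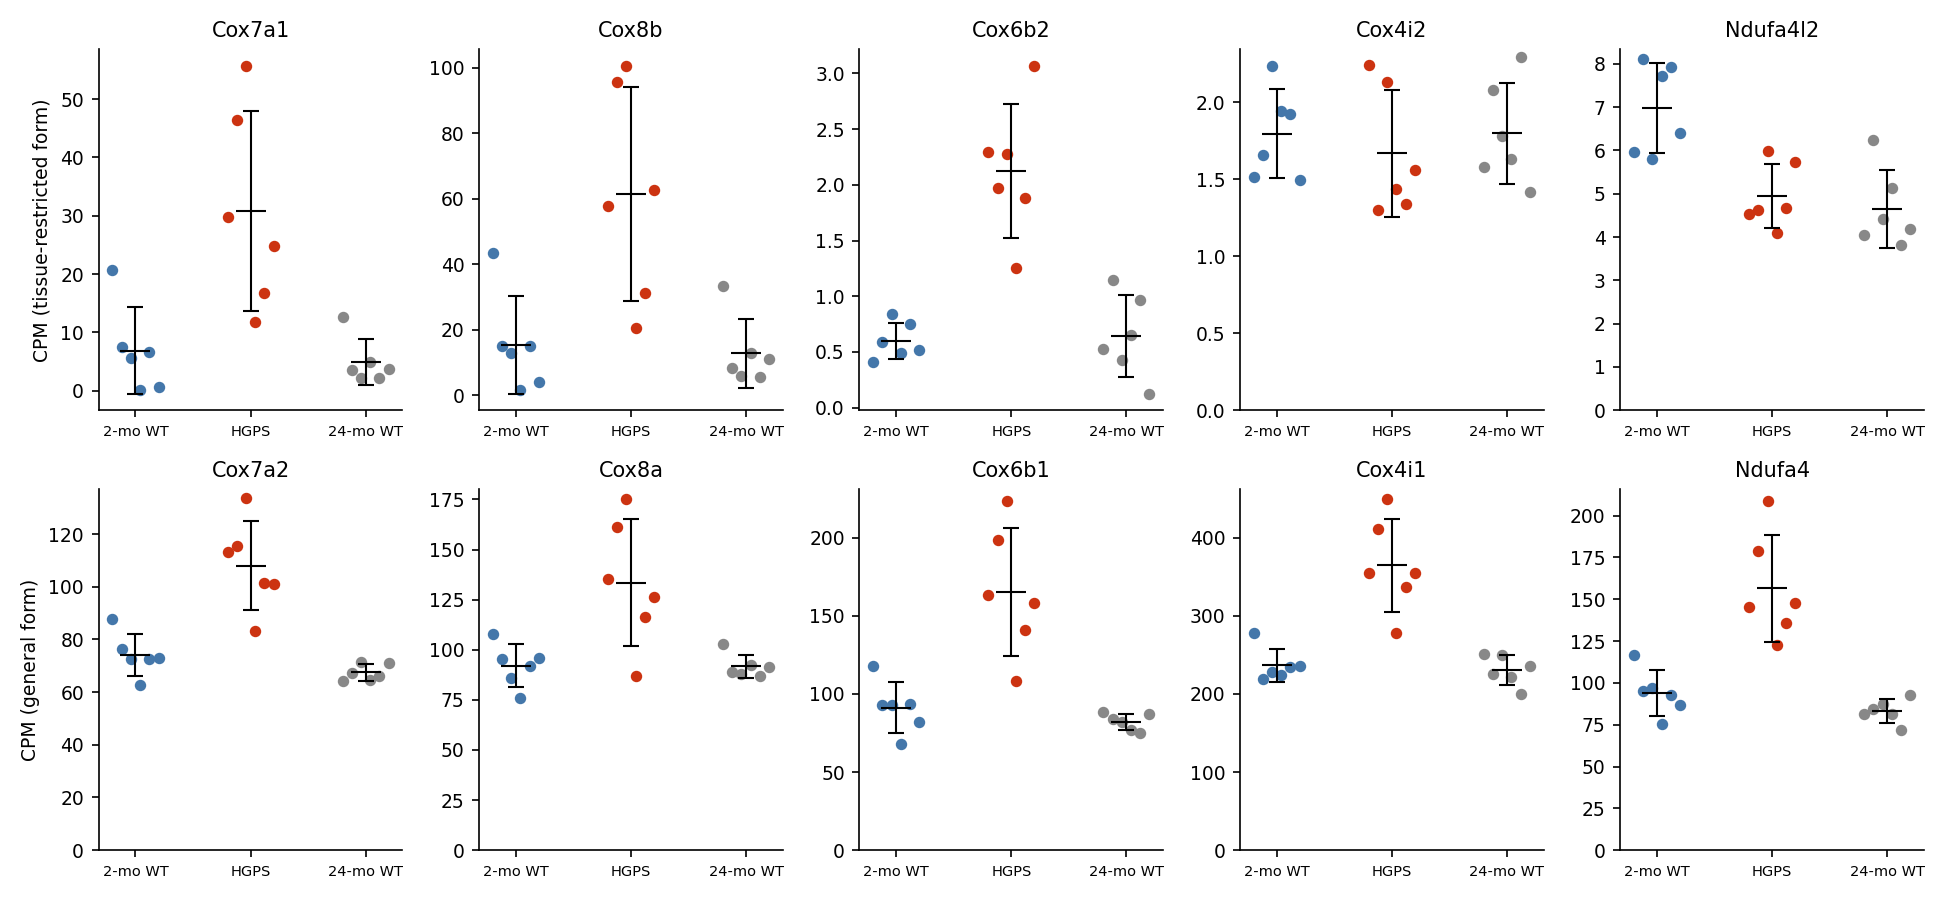
CPM of Cox7a1, Cox8b, Cox6b2, Cox4i2 and Ndufa4l2 (upper panels) and of their common partners Cox7a2, Cox8a, Cox6b1, Cox4i1 and Ndufa4 (lower panels) in each of the 18 mice (points), with the mean ± SD of each group. Cox7a1 and Cox8b overlapped between HGPS and 2-mo WT through 2-mo WT replicate 1, whereas Cox6b2, Cox4i1 and Ndufa4 did not overlap between them.

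Genes that build and serve the chain were described from lists of their own, whose counts stand beside the 22% of all genes that rose and 21.2% that fell in HGPS over 2-mo WT. Of 49 tested assembly factors 18 rose and none fell in HGPS over 2-mo WT, with a median of 0.26. The copper chaperone Cox19 rose from 14.8 ± 1.17 to 22.3 ± 2.33 CPM (0.59, adjusted p = 8.91e-06), Coa5, a complex IV assembly factor, by 0.65 (adjusted p = 4.46e-05) and Uqcc2, a complex III assembly factor, by 0.85 (adjusted p = 5.44e-05). Of 78 mitochondrial ribosome genes 45 rose and none fell, with a median of 0.24, among them Mrpl12 by 0.71, Mrpl20 by 0.42 and Mrps7 by 0.37. Of 23 tested import genes 14 rose and 1 fell, with a median of 0.34. The inner membrane channel components Timm23 and Timm17a rose by 0.81 and 0.65, and Tomm34, a cytosolic co-chaperone of import, fell by 0.62 ± 0.0593, with all HGPS mice below all WT mice (adjusted p = 3.53e-07).

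Of the carriers beside the chain, 12 of 19 tested genes were higher and 1 lower in HGPS over 2-mo WT, where 22% of all genes rose and 21.2% fell, with a median of 0.50. Cycs, cytochrome c, which carries electrons from complex III to complex IV, rose from 48.6 ± 10.4 to 118 ± 35.9 CPM (1.28 ± 0.162, adjusted p = 6.86e-06). Slc25a5, an ADP/ATP carrier, rose by 0.53 (adjusted p = 6.17e-06), and Etfdh, which feeds electrons from fatty acid oxidation to ubiquinone, by 0.94 (adjusted p = 0.000644). With the brown fat score as a covariate Etfdh no longer passed (0.16, adjusted p = 0.474). Of 16 genes that copy and transcribe mitochondrial DNA 1 rose, the transcription factor Tfb2m by 0.32 (adjusted p = 0.00834), and 1 fell, Mterf2 by 0.72 (adjusted p = 0.0207), with a median of -0.08. Mterf2 had an adjusted p of 0.0549 without 2-mo WT replicate 1, and Tfb2m was at 0.18 (adjusted p = 0.364) with the brown fat score as a covariate. Tfam, which packages mitochondrial DNA and starts its transcription, was at 23.8 ± 2.49 CPM in HGPS, 22.5 ± 3.62 in 2-mo WT and 23.3 ± 2.78 in 24-mo WT (0.08 in HGPS over 2-mo WT, adjusted p = 0.563), and the nuclease Mgme1 was at 0.30 (adjusted p = 0.0851).

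Among nuclear regulators of the chain, 5 of 13 tested rose and 1 fell, again beside 22% and 21.2% of all genes, with a median of 0.25. Ppargc1a, a coactivator of mitochondrial genes that is induced in brown fat, was at 16.7 ± 9.17 CPM in HGPS, 4.56 ± 0.918 in 2-mo WT and 3.47 ± 1.18 in 24-mo WT, without overlap between HGPS and either WT group (1.86 ± 0.316 over 2-mo WT, adjusted p = 0.000131). Pparg, the adipocyte regulator, rose by 1.53 (adjusted p = 0.0011) and Esrra, an orphan receptor that works with Ppargc1a, by 0.49 (adjusted p = 0.0259). Nrf1 and Gabpa, transcription factors that bind subunit promoters, were at -0.02 (adjusted p = 0.857) and -0.01 (adjusted p = 0.932), and Gabpb2, a partner of Gabpa, fell by 0.50 (adjusted p = 3.11e-05). None of the 3 named rises passed with the brown fat score as a covariate, which gave 1.20 for Ppargc1a (adjusted p = 0.0706), 0.19 for Pparg (adjusted p = 0.583) and 0.04 for Esrra (adjusted p = 0.915). In the fit without it, Esrra had an adjusted p of 0.0506 to 0.0704 without HGPS replicate 1, 2 or 3 or 2-mo WT replicate 2, 3 or 5.

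Between 24-mo and 2-mo WT few genes of these lists passed, with 1 of 49 assembly factors higher, 1 mitochondrial ribosome gene higher and 2 lower, and 1 import gene lower, where 6.29% of all genes rose and 5.38% fell. None of the DNA copying genes, regulators or carriers was called by edgeR at an adjusted p under 0.05, and at an unadjusted p under 0.05 there were 1 DNA copying gene lower and 1 regulator higher. In HGPS over 24-mo WT, where 23.8% of all genes rose and 23.6% fell, 23 assembly factors were higher and 1 lower, 50 mitochondrial ribosome genes higher, 14 import genes higher and 1 lower, 10 carriers higher and 2 lower, 4 regulators higher and 1 lower, and 1 DNA copying gene higher and 3 lower.

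Levels of different members were compared per kilobase of transcript. Mitochondrial genes were the most abundant in every group, with a median of 1293 CPM per kilobase in HGPS, 813 in 2-mo WT and 1064 in 24-mo WT against 94.2, 61.2 and 56.9 for the nuclear members. mt-Co3 and mt-Co1 led in all groups, at 9834 and 9778 CPM per kilobase in HGPS, 6632 and 6373 in 2-mo WT and 9088 and 9560 in 24-mo WT. mt-Nd6 was the lowest mitochondrial gene, at 12.3, 8.91 and 10.7. The nuclear gene of highest level was Atp5b, at 555, 343 and 361, and the lowest members were Cox4i2 in HGPS, at 2.28, and Cox6b2 in both WT groups, at 1.02 and 1.10.

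Motifs of factors known to act on respiratory genes were looked up in the RefSeq promoters of the nuclear members, of which 69 of 87 were matched, with 74 promoters. Both strands were searched. The core of the NRF1 site, GCATGCGC, was found in 13.5% of them, in 2.71% of 32851 promoters of all genes and in 3.52% of the 21263 promoters of protein-coding genes. The ETS motif CCGGAAG, which GABPA binds, was in 21.6%, against 8.86% of all and 11.6% of protein-coding promoters. The YY1 motif AAGATGGCG was in 9.46%, against 1.40% and 1.83%, and the ESRRA motif TCAAGGTCA in 2.70%, against 0.423% and 0.334%. In all, 37.8% of the member promoters held at least 1 of the 4 motifs, against 12.5% of all promoters and 16.0% of those of protein-coding genes. A match describes the letters in the window and not binding.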

How the data were processed

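The authors used salmon with GENCODE M23 transcripts and tximport, and the deposited table gives estimated counts of 54281 genes, not normalized, as whole numbers. How these were rounded is not given in the sources used here. The submitters' notes also name Bowtie 0.12.2, without a role. Names and GRCm38 coordinates came from GENCODE M21, which held 54107 of the identifiers.

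A gene was tested if 6 or more of the 18 mice had 10 or more counts (15210 genes). The fit used edgeR 4.0.16 in R 4.3.3 with TMM factors and the quasi-likelihood functions glmQLFit and glmQLFTest, held all 3 groups and had 15 residual degrees of freedom. Benjamini-Hochberg adjustment ran over all tested genes, and p-values set group differences against the spread between mice. The cut-offs of the stricter threshold were those of the study, which applied them to DESeq2 results. Counts here are from edgeR unless DESeq2 is named. CPM used TMM-scaled totals, and marker levels are means of log2 CPM with a prior count of 2. Levels per length used the longest of a gene's transcripts that GENCODE tags as principal (APPRIS). Without such a tag, the longest protein-coding transcript was used, or else the longest of all. Isoform ratios had 0.5 added to both counts and were compared by two-sided exact permutation over mice. Totals of 12413229 to 30844775 counts limit the precision of members under a few CPM. Near-identical copies were found with blastn 2.17.0+ at 95% identity over 200 bases or the whole of the shorter transcript (54 copies of 33 members).

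The members, the lists and the named genes were chosen with earlier results of these data known. Named were the isoforms and their partners, the mitochondrial genes, the extremes of each complex, complex II, subunit c, and the 3 genes of smallest adjusted p in each list, with 5 fixed regulators. Alternatives were DESeq2 1.42.0, other scalings, filters and thresholds, the 2 groups alone, covariates, copies and leaving out each mouse. The edgeR fit was tested on simulated counts with known changes.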

Additional observations from a re-analysis of the deposited data

Results flagged for a closer look

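In 99 groups of 6 mice, 1 mouse stood apart from the other 5 in 4 cases, where chance alone gives about 1 in 20 groups. In 3 of them it was 24-mo WT replicate 1. Its mean log2 CPM over the 4 complex II genes was 6.957, against 6.718 to 6.780 in the other 24-mo WT mice. Its mean log2 CPM over the carriers beside the chain was 5.212, against 4.935 to 5.038, and its log2 CPM of Cox8a was 6.690, against 6.447 to 6.529. That mouse also had the highest brown fat marker level of its group, 4.41 against 2.43 to 3.51. In the remaining case, 2-mo WT replicate 1 had a log2 CPM of 8.119 for Cox4i1, against 7.776 to 7.880 in the other 2-mo WT mice, and its brown fat marker level, 4.85, was also the highest of its group. The part of the brown fat markers in these values was not tested.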

How the results depend on the processing

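Of 103 results for named genes under 28 settings (2884 values), 2734 kept their direction and side of the threshold, 134 lost significance and 16 turned, all 16 under the brown fat covariates. At the stricter threshold, 30 members in HGPS over 2-mo WT became 13 with the 2 groups alone, 0 with the brown fat score, with or without the skeletal muscle score, 80 at an adjusted p under 0.05 without a fold limit, 4 with limits of 0.8 on the log2 scale and 0.0001 for the adjusted p, and 15 to 46 without 1 mouse. The 44 in HGPS over 24-mo WT became 1 with either covariate, 76, 17, and 33 to 58 without 1 mouse, and the 0 in 24-mo over 2-mo WT became 5 at an adjusted p under 0.05 and stayed 0 without any 1 mouse.

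With the brown fat score, and with the skeletal muscle score added, the nuclear median was 0.18 and 0.18 in HGPS over 2-mo WT and 0.32 and 0.31 over 24-mo WT, and the mitochondrial median was -0.0279 and 0.0365 over 2-mo WT and -0.35 and -0.38 over 24-mo WT. Named genes that turned with both covariates (in the same order) were Cox7a1, -0.32 and -0.33 over 2-mo WT and -0.39 and -0.37 over 24-mo WT; Cox8b, -0.41 and -0.48, and -0.56 and -0.47; and, over 24-mo WT, Sdha, -0.0077 and -0.0117, and Pparg, -0.35 and -0.29. With the brown fat score alone mt-Nd1 turned, to -0.0279 over 2-mo WT, and with both scores Uqcrc1 and Esrra, to -0.025 and -0.0754 over 2-mo WT, and Coa5, to -0.0169 over 24-mo WT.

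Without 1 mouse, the nuclear median was 0.49 to 0.64, -0.14 to -0.05 and 0.55 to 0.75 in HGPS over 2-mo WT, 24-mo over 2-mo WT and HGPS over 24-mo WT, and the mitochondrial median 0.35 to 0.57, 0.33 to 0.51 and -0.02 to 0.19. The Cox7a1 to Cox7a2 difference was 1.83 to 3.09 in HGPS over 2-mo WT, where it lost significance without HGPS replicate 1 or 3, and -0.24 to 1.02 in 24-mo over 2-mo WT. For Cox8b to Cox8a the ranges were 1.48 to 2.33, with the same losses, and -0.36 to 0.50. For Cox4i2 to Cox4i1 in 24-mo over 2-mo WT the range was -0.0804 to 0.11. For Ndufa4l2 to Ndufa4 it was -0.54 to -0.34. With all mice this difference was -0.43 and did not pass (exact permutation, adjusted p = 0.0747). Without 2-mo WT replicate 1 its adjusted p was 0.0289 (exact permutation).

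Deviations of same-numbered mice from their group means were weakly correlated, with r between -0.162 and 0.172 over 18 pairs, 2 of them over 0.1. Pairs with different numbers were not set beside them, so these values cannot exclude shared handling. The main fit did not pair the mice. With a replicate block the counts were 25, 0 and 38, the nuclear medians 0.55, -0.10 and 0.64 and the mitochondrial medians 0.48, 0.45 and 0.08 in the 3 comparisons. The depth limits members under a few CPM, such as Cox6a2.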
